A study of Mus musculus with 6 samples.

Results

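The genes described are 9 costimulatory and checkpoint genes, chosen by gene symbol among the 17469 genes of the deposited table: Cd274, Pdcd1lg2, Cd80, Cd86, Cd40, Icosl, Havcr2, Cd83 and Cd200r1. They were measured by RNA-seq in tdTomato+ cells sorted from cultured BMSCs (adherent bone marrow cells) of 6-month-old mice, with 3 libraries of each genotype. Control mice carried Ocn-Cre, which places Cre under the osteocalcin promoter, and the Ai9 reporter, which makes cells red once Cre has acted. The TgAPPswe;Ocn-Cre;Ai9 mice carried these 2 alleles as well, and in them Cre also removed a loxP-flanked stop that otherwise blocks expression of a human APP with the Swedish mutation, transcribed from a CAG promoter. Their sorted cells are called APPswe+ OB (osteoblast) progenitors. No treatment was given to either genotype, and the number of mice behind each library is not given in the sources used here, so the p-values below measure the spread between these libraries.

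T cells need a signal through the T cell receptor and a further one through costimulatory receptors such as CD28 and ICOS. CD80 and CD86 give that signal through CD28 and withdraw it through CTLA-4, ICOSL binds ICOS, and CD40 is the receptor through which T cells carrying CD40 ligand activate macrophages, dendritic cells and B cells. PD-L1 (Cd274) and PD-L2 (Pdcd1lg2) bind PD-1 and restrain T cells. TIM-3 (Havcr2) and CD200R1 are inhibitory receptors found on myeloid cells, and CD83 is a surface protein of mature dendritic cells. Of the 9 genes, therefore, 5 encode ligands of T cell receptors, 3 encode receptors, and Cd83 fits neither group well.

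The sorted cells were rich in transcripts of myeloid cells, the cells in which these genes are best known. Total estimated counts ranged from 19340810 to 22037840 per library, and 3 counts, the smallest level taken as detectable, corresponded to 0.136 to 0.155 CPM (counts scaled to a common library total). The median FPKM (fragments scaled by gene length and depth) of 15 myeloid marker genes was 407 to 453 in control and 472 to 508 in APPswe+ libraries. For 15 stromal and osteoblast marker genes it was 1.62 to 2.13 and 1.47 to 4.04. The most abundant of these were Col1a2 (mean FPKM 53 in control and 42 in APPswe+ cells), Col1a1 (45.5 and 34.9) and Cxcl12 (31.7 and 44.8). Bglap, which encodes osteocalcin, had a mean FPKM of 0.857 in control and 0.273 in APPswe+ cells. With at most 10 counts in any library, Bglap was too low to be tested between the genotypes. The osteoblast lineage in the name of the cells was thus not what their most abundant marker transcripts showed, and the name is kept here as a label. T cell transcripts were near 0, with a summed FPKM of 1.13 to 2.78 over 9 T cell marker genes in control and 1.19 to 1.82 in APPswe+ libraries. The FPKM of App averaged 279 ± 3.5 in control and 330 ± 4.18 in APPswe+ cells (SD, n = 3 each, log2 fold change 0.45, adjusted p = 7.87e-05), without a separate entry for the human transgene. In bulk RNA, fewer cells of a type and less RNA per cell cannot be told apart.

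The comparison of the genotypes split the 9 genes. A gene was called up- or down-regulated where edgeR's quasi-likelihood test over 12701 genes gave a Benjamini-Hochberg adjusted p of no more than 0.05 together with a change of 1 or more on the log2 scale. Cd274, Pdcd1lg2 and Cd40 were up-regulated and Cd86, Cd83 and Havcr2 were down-regulated, while Icosl, Cd80 and Cd200r1 were not past both thresholds. These are 6 of 9 genes, against 18.1% of all genes tested (8.9% up and 9.2% down, or 1130 and 1169 genes, which became 846 and 1732 with scaling by library size only). All 9 genes passed the filter on low counts, but Pdcd1lg2 did so only through its counts in the APPswe+ libraries, so its call follows in part from the filter. Without it, 5 of 8 genes were called. By adjusted p alone 8 of the 9 passed, 5 higher and 3 lower in APPswe+ cells, against 64% of all genes tested (32.5% higher and 31.5% lower). Of these 8, Cd200r1 no longer passed without control replicate 2 (edgeR adjusted p = 0.0832) or without APPswe+ replicate 2 (edgeR adjusted p = 0.0679). The median log2 fold change of the 9 genes was 0.18, against -0.02 over all genes tested. FPKM values of the genotypes did not overlap for 7 of the 9 genes, 4 of them higher and 3 lower in APPswe+ cells, against 72.3% of all genes tested (24% higher and 48.3% lower).

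**Figure D1:**
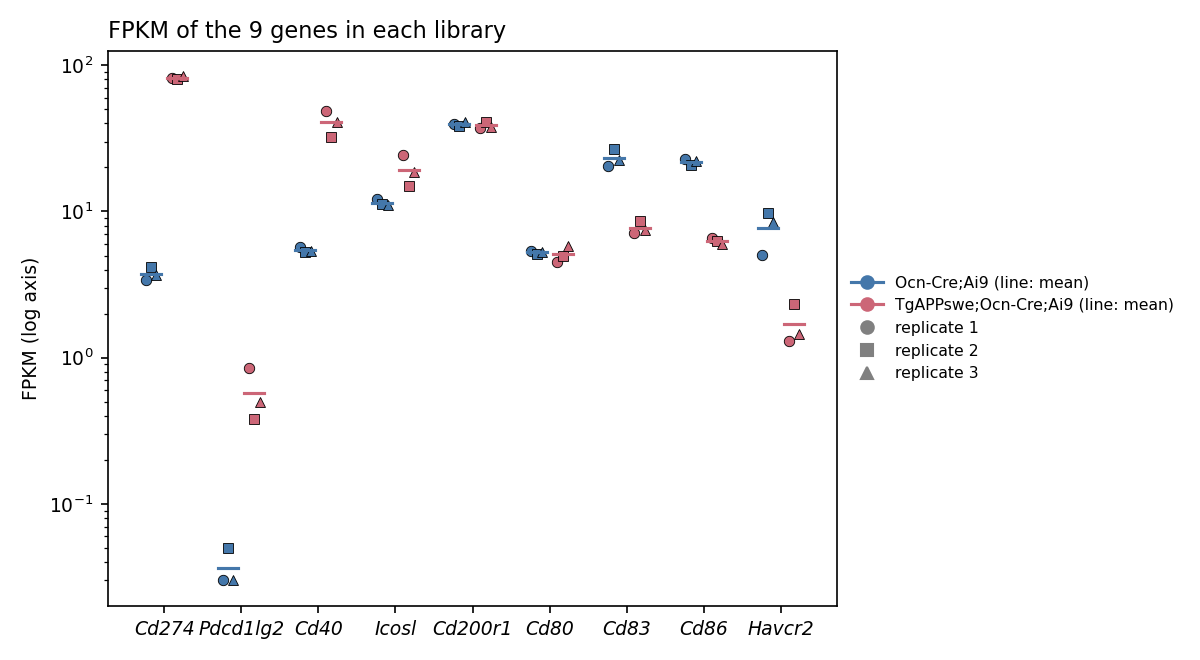
FPKM of the 9 genes (log axis) in the 3 control (blue) and 3 APPswe+ (red) libraries, with a line at each mean and a symbol for each replicate number. Cd274 lies between 3.39 and 4.17 in control and between 81.15 and 84.45 in APPswe+ libraries, whereas the values of Cd80 and Cd200r1 overlap between the genotypes.

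Cd274 and Pdcd1lg2, the genes of both PD-1 ligands, lie side by side on mouse chromosome 19, and both had higher values in every APPswe+ library than in any control library. In build mm10 (GRCm38) with GENCODE M21, Cd274 (Entrez identifier 60533) spans chr19:29367455-29388095 and Pdcd1lg2 (Entrez identifier 58205) spans chr19:29410919-29471161, both on the plus strand. Their RefSeq promoter windows (build GRCm38.p6), from 250 bases before to 50 bases after the start site, are shown because the genes are neighbours and encode ligands of the same receptor. Capitals mark the bases from the start site on.
Cd274, chr19:29367188-29367487, plus strand: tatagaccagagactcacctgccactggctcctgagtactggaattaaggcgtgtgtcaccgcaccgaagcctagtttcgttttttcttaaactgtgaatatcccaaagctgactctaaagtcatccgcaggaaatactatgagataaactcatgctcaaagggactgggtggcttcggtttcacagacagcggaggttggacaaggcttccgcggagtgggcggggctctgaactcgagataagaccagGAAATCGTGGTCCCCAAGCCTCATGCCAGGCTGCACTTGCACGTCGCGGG
Pdcd1lg2, chr19:29410669-29410968, plus strand: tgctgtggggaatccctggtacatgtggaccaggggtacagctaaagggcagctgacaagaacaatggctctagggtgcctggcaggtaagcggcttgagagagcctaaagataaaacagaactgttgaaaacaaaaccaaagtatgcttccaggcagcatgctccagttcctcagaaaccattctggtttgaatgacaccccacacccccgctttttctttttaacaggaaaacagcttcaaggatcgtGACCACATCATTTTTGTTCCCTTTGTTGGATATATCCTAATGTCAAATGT
The Cd274 window has 15 CG pairs and 52.7% G and C, the Pdcd1lg2 window 3 CG pairs and 46% G and C. Neither holds the letters of a stricter or a looser NF-kB motif, the GAS motif TTCNNNGAA, the ISRE motif or the AP-1 motif TGANTCA on either strand. Of 32851 mouse promoter windows of this length, 1.63%, 5.56%, 8.3%, 3.44% and 7.81% hold these letters in the same order of motifs, and every match of the stricter NF-kB motif is also one of the looser.

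Cd274 encodes PD-L1. Its FPKM was 3.39, 4.17 and 3.7 in control and 81.31, 81.15 and 84.45 in APPswe+ libraries. Every APPswe+ library lay far above every control library, and the spread within a genotype was small. The change was 25.4-fold on the scale of normalized counts, a log2 fold change of 4.67 (standard error 0.0835, 95% interval 4.48 to 4.86, adjusted p = 7.66e-09). It ranked 85 of 12701 genes by log2 fold change, counted from the largest increase. With 238 to 295 counts in control and 6353 to 6544 in APPswe+ libraries, the gene was well above the smallest detectable level throughout. In FPKM it went from the eighth place among the 9 genes in control to the first in APPswe+ cells.

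Pdcd1lg2 encodes PD-L2. It was barely detected in control, with 2, 3 and 2 counts, and had 63, 28 and 36 counts in the APPswe+ libraries. The corresponding FPKM was 0.03, 0.05 and 0.03 in control and 0.85, 0.38 and 0.5 in APPswe+ libraries, so all APPswe+ values were higher and still the lowest of the 9 genes. Replicate 1 was the highest of the APPswe+ libraries. Counts summed to 7 in control and 127 in APPswe+ libraries, a ratio of 16.3 after scaling to library totals (exact binomial 95% interval 7.66 to 41.2, for counting error only). In edgeR the log2 value was 4.17 with a standard error of 0.492 (adjusted p = 0.000107), and in limma on log2(FPKM + 1), where values this low are compressed, it was 0.59. The log2 ratio of Cd274 to Pdcd1lg2 differed by 0.52 between the genotypes (exact permutation test, two-sided p = 0.3), from which nothing is read, since Pdcd1lg2 was at or below 3 counts in each control library.

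Around these genes, 13 genes within 500 kb of Cd274 were tested, a window chosen after the values were seen. Of these 4 were up-regulated (Cd274, Ric1, Jak2 and, through the APPswe+ libraries alone, Pdcd1lg2) and 0 were down-regulated with edgeR, against 8.9% and 9.2% of all genes tested, a count from which nothing is read because of how the window was chosen. Ric1, the next protein-coding gene beyond Pdcd1lg2, rose from a mean FPKM of 5.14 to 17 (log2 fold change 1.93, adjusted p = 2.74e-07). Jak2, the kinase that acts below the interferon-gamma receptor, rose from a mean FPKM of 9.54 to 21.1 (adjusted p = 2.73e-05). Plgrkt, on the other side of Cd274, had a log2 fold change of 0.80 (adjusted p = 1.38e-05), below the fold change threshold. The RefSeq models of Plgrkt and Cd274 overlap, and whether counting used strand is not given in the sources used here. Ermp1, just beyond Ric1, had a log2 fold change of -0.02 (adjusted p = 0.864).

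**Figure D2:**
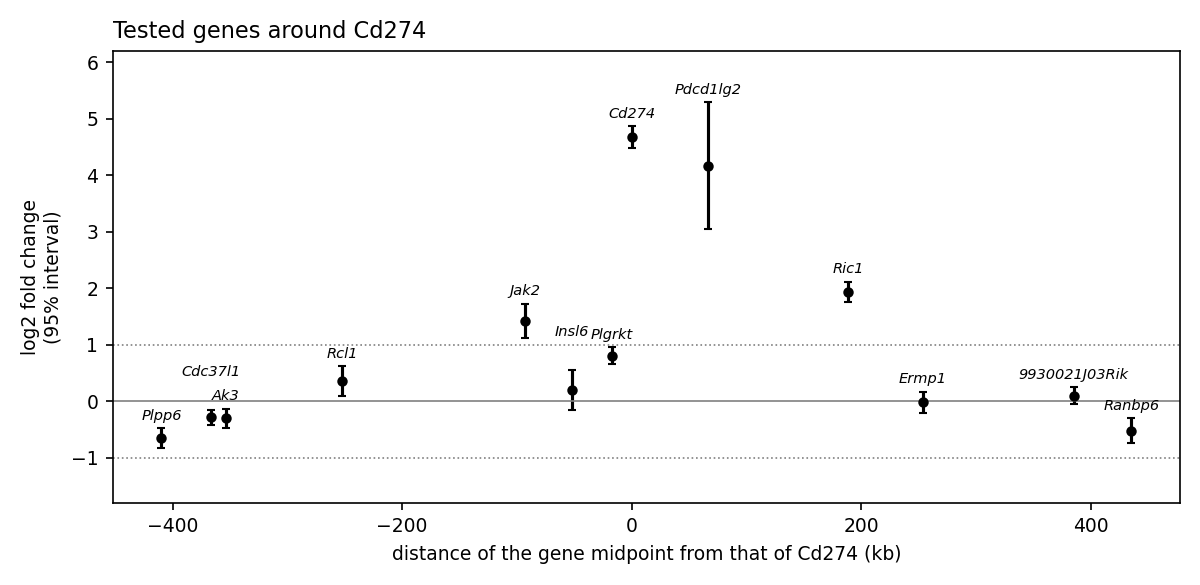
Log2 fold change (APPswe+ over control, with 95% intervals from edgeR) of the 13 tested genes within 500 kb of Cd274, plotted at the distance of each gene's midpoint from that of Cd274 in kb, with dotted lines at the fold change threshold. Cd274 (4.67) and Pdcd1lg2 (4.17) stand above Ric1 (1.93) and Jak2, and the other genes lie between -0.66 and 0.80.

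Of the ligands of CD28 and CTLA-4, Cd86 fell and Cd80 did not change beyond the spread between libraries. Cd86 (Entrez identifier 12524, chr16:36603869-36666081, minus strand) had an FPKM of 22.93, 20.9 and 22 in control and 6.55, 6.28 and 5.95 in APPswe+ libraries. The groups were far apart and tight. Its level was 3.06-fold lower in APPswe+ cells, a log2 fold change of -1.61 (standard error 0.0736, 95% interval -1.78 to -1.45, adjusted p = 4.96e-07). Cd80 (Entrez identifier 12519, chr16:38455561-38496335, plus strand) had an FPKM of 5.4, 5.1 and 5.26 in control and 4.48, 4.97 and 5.81 in APPswe+ libraries. The APPswe+ values enclosed the control values. Its log2 fold change was 0.16 with a 95% interval of -0.11 to 0.42 (adjusted p = 0.263), and it was -0.059 with scaling by library size only, so no direction can be given.

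The ratio of the pair did not overlap between the genotypes. Cd86 exceeded Cd80 in FPKM by 4.25, 4.1 and 4.18 times in control and by 1.46, 1.26 and 1.02 times in APPswe+ libraries. Every APPswe+ library was closer to parity than every control library. The log2 ratio of Cd80 to Cd86 was -2.06 ± 0.0257 in control and -0.31 ± 0.258 in APPswe+ libraries (n = 3, exact permutation test, two-sided). Its p = 0.1 in this exact test is the lowest value that 3 against 3 libraries can give (0.15 after Benjamini-Hochberg adjustment over 3 ratios, that of Cd274 to Pdcd1lg2 included). CD80 also binds PD-L1 on the same cell. Cd80 exceeded Cd274 by 1.22 to 1.59 times in control, whereas Cd274 exceeded Cd80 by 14.5 to 18.1 times in APPswe+ libraries, a difference of -4.51 in the log2 ratio of Cd80 to Cd274 (exact permutation test, two-sided p = 0.1, adjusted 0.15). The summed FPKM of Cd80 and Cd86 was 26 to 28.3 in control and 11 to 11.8 in APPswe+ libraries, while that of Cd274 and Pdcd1lg2 was 3.42 to 4.22 and 81.5 to 84.95.

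Icosl, the ligand of ICOS (Entrez identifier 50723, chr10:78069302-78083913, plus strand), was higher in APPswe+ cells by less than the fold change threshold. Its FPKM was 12.22, 11.2 and 11.08 in control and 24.36, 14.83 and 18.48 in APPswe+ libraries. All APPswe+ values were higher, replicate 1 most of all. The log2 fold change was 0.96 (standard error 0.17, 95% interval 0.57 to 1.35, adjusted p = 0.00117), and it passed the fold change threshold when control replicate 1 or APPswe+ replicate 2 was left out (1.13 without the latter). Dnmt3l, the protein-coding gene before Icosl, was near 0 in control, at a mean FPKM of 0.0667, and at 0.883 in APPswe+ cells. It was up-regulated with edgeR (log2 fold change 4.08, adjusted p = 0.000579), a change that rests on the control level near 0. Gatd3a on the other side had a log2 fold change of 0.05 (adjusted p = 0.73).

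Among the receptors, Cd40 rose and Havcr2 fell. Cd40 (Entrez identifier 21939, chr2:165055627-165072948, plus strand) had an FPKM of 5.74, 5.26 and 5.38 in control and 48.7, 32.13 and 41.02 in APPswe+ libraries. The control values lay close together, and the lowest APPswe+ value was well above them. The change was 8.69-fold, a log2 fold change of 3.12 (standard error 0.165, 95% interval 2.74 to 3.50, adjusted p = 1.1e-06). Ncoa5, beside Cd40, had a log2 fold change of -0.14 (adjusted p = 0.093).

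Havcr2, which encodes TIM-3 (Entrez identifier 171285, chr11:46454935-46481255, plus strand), had an FPKM of 5.06, 9.78 and 8.45 in control and 1.3, 2.32 and 1.46 in APPswe+ libraries. All APPswe+ values were below the lowest control value, that of replicate 1. Its spread was the widest of the down-regulated genes among the 9. The log2 fold change was -1.98 (standard error 0.278, 95% interval -2.62 to -1.35, adjusted p = 0.000291), a 3.96-fold lower level. Lgals9, which encodes the TIM-3 ligand galectin-9, rose from a mean FPKM of 70.7 to 262 (log2 fold change 2.10, adjusted p = 2.69e-06). Ceacam1, which encodes another proposed TIM-3 ligand, rose from 2.21 to 6.56 (1.81, adjusted p = 6.72e-06). Hmgb1, whose product also binds TIM-3, went the other way, from 97.2 to 47.3 (-0.82, adjusted p = 3.45e-06), below the fold change threshold. Ptdss1, which makes phosphatidylserine, another TIM-3 ligand, had a log2 fold change of 0.06 (adjusted p = 0.403). Med7, the gene before Havcr2, had a log2 fold change of 0.25 (adjusted p = 0.0164).

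Cd200r1 (Entrez identifier 57781, chr16:44765736-44794978, plus strand) was the most abundant of the 9 genes in control, with an FPKM of 39.6, 38.63 and 41.09. In APPswe+ libraries its FPKM was 37.52, 41.15 and 37.92. The values overlapped, and the exact permutation test over libraries gave a two-sided p = 0.6. With edgeR it was higher by a log2 value of 0.18 (with a standard error of 0.0564, 95% interval 0.05 to 0.31, adjusted p = 0.0202), and with library size only the value was -0.033 (adjusted p = 0.637), so the direction depended on the scaling. Its counts, like those of the others of the 9 genes, were whole in every library. Cd200r4, the related gene beside it, had a log2 fold change of 0.12 (adjusted p = 0.218), and Cd200, the gene of the ligand, had one of -0.51 (adjusted p = 0.155) from mean FPKM values of 1.46 and 0.883.

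Cd83 (Entrez identifier 12522, chr13:43784775-43803132, plus strand), which encodes a protein that stabilizes CD86 and MHC class II at the surface of dendritic cells, fell together with Cd86. Its FPKM was 20.41, 26.86 and 22.5 in control and 7.11, 8.59 and 7.48 in APPswe+ libraries. The groups were well apart, with replicate 2 highest in both. The level was 2.59-fold lower, a log2 fold change of -1.38 (standard error 0.112, 95% interval -1.63 to -1.12, adjusted p = 1.21e-05). Jarid2, the next protein-coding gene, had a log2 fold change of -0.59 (adjusted p = 6.89e-05).

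**Figure D3:**
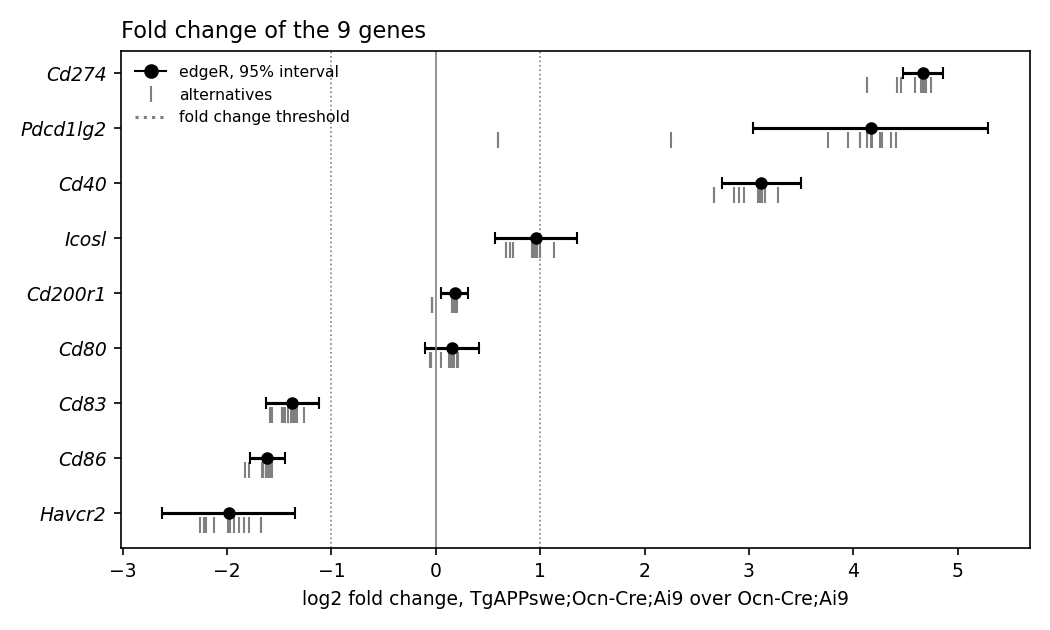
Log2 fold change of the 9 genes, APPswe+ over control, with 95% intervals from edgeR (black) and the values under the alternative fits (grey ticks), with dotted lines at a log2 fold change of 1 in either direction. The widest range of ticks is that of Pdcd1lg2, from 0.59 to 4.41, and the ticks of Cd80 and Cd200r1 lie on both sides of 0.

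The promoter table held 5 of the 9 genes (Cd274, Pdcd1lg2, Cd80, Icosl and Havcr2). Of the 5 motifs searched, the AP-1 letters TGANTCA were the only ones found, in Cd80 and Havcr2. The stretches around them are shown with the matching letters in capitals, since one gene fell and the other did not change beyond the spread.
Cd80, chr16:38458871-38458917, plus strand, match starting 42 bases before the start site: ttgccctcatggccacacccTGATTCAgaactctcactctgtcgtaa
Havcr2, chr11:46454711-46454757, plus strand, match starting 200 bases before the start site: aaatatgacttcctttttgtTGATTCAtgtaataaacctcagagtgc
Start sites are those of the RefSeq windows, and that of Cd80 lies inside the GENCODE span of the gene given above. These are matches of letters and do not show that a factor binds there.

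The makeup of the summed FPKM of the 9 genes also differed, given here as a description without a test. The sum was 115 to 122 in control and 192 to 212 in APPswe+ libraries. Cd274 made up 2.95% to 3.42% of it in control and 38.3% to 42.3% in APPswe+ libraries, and Cd40 made up 4.31% to 5% and 16.8% to 23%. Cd86 went from 17.1% to 20% down to 2.93% to 3.27%, and Cd83 from 17.8% to 22% down to 3.35% to 4.48%. Cd200r1 held 31.7% to 34.5% of the sum in control and 17.7% to 21.5% in APPswe+ libraries while its own FPKM overlapped between the genotypes. In control, the order by mean FPKM was Cd200r1, Cd83, Cd86, Icosl, Havcr2, Cd40, Cd80, Cd274 and Pdcd1lg2, where the ranges of Cd83 and Cd86, of Havcr2 and Cd40 and of Cd40 and Cd80 overlapped. In APPswe+ cells it was Cd274, Cd40, Cd200r1, Icosl, Cd83, Cd86, Cd80, Havcr2 and Pdcd1lg2, where, of neighbours in the order, only Cd40 and Cd200r1 had overlapping ranges.

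**Figure D4:**
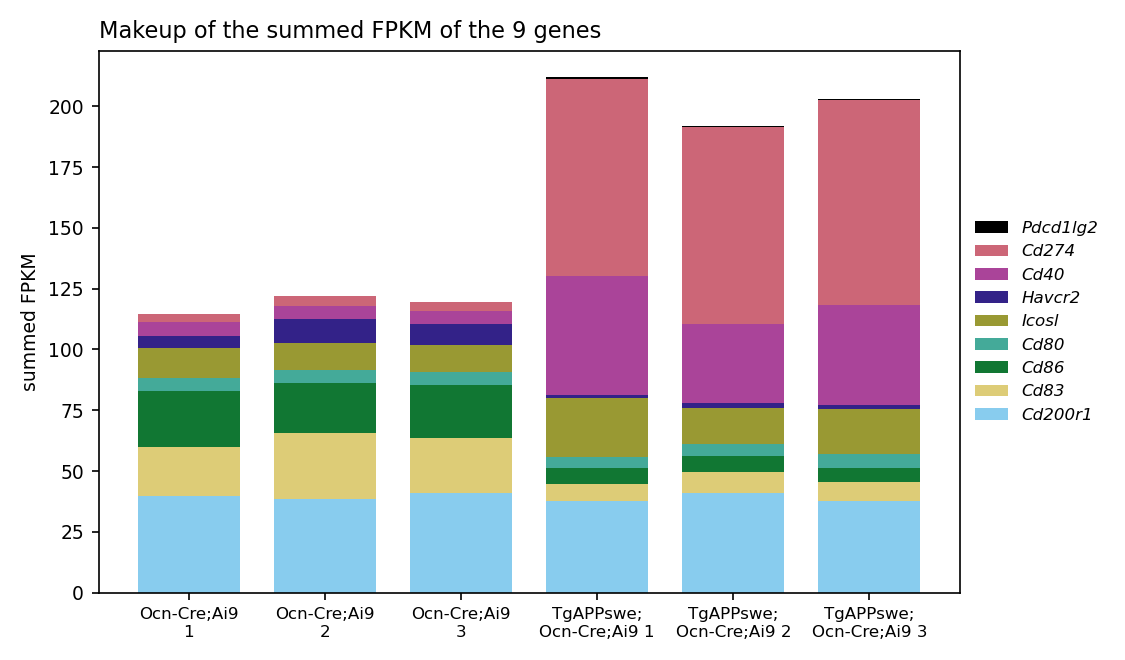
Summed FPKM of the 9 genes in each of the 6 libraries, as stacked bars that start at 0, with one colour per gene. The bars reach 115 to 122 in control and 192 to 212 in APPswe+ libraries, and Cd274 grows from 2.95% to 3.42% of the bar to 38.3% to 42.3%.

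For 5 of the 6 genes called, the gene with the most alike profile was taken over the 6 libraries (smallest Euclidean distance between log2 CPM profiles centred on the control mean). Pdcd1lg2 is left out, since its control level was at or below 3 counts and its log2 profile then depends on the small count added before the log. The nearest gene was Lipg for Cd274 (distance 0.272), which has the same limit with a mean FPKM of 0.04 in control, Sod2 for Cd40 (0.262), Cdkn2c for Cd86 (0.16), Slc37a2 for Cd83 (0.178) and Vwf for Havcr2 (0.444). Sod2, mitochondrial superoxide dismutase, rose from a mean FPKM of 20.4 to 147, and Cdkn2c, a CDK inhibitor, fell from 25.6 to 7.39. Also among the 3 nearest were Gpr31b and Asb2 for Cd274, Sla and Ccl3 for Cd40, Tifab and Kmt5c for Cd86, Bcl2l11 for Cd83, and Fabp4 and Lsp1 for Havcr2.

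Other costimulatory ligands moved in both directions. The counts of each list below stand against 8.9% up- and 9.2% down-regulated among all genes tested. Among 6 further B7-related genes with values, 3 passed the filter on low counts. Tnfrsf14, which encodes HVEM, was up-regulated (1.25), Cd276, which encodes B7-H3, was down-regulated (-1.36), and Vsir, which encodes VISTA and was far more abundant at a mean FPKM of 156 and 124, had a log2 fold change of -0.12 (adjusted p = 0.0693). Of 4 tested TNF superfamily ligands, Tnfsf4 (OX40 ligand) and Tnfsf15 (1.60) were up-regulated and Tnfsf14 (LIGHT, -1.66) was down-regulated. Tnfsf4 was at a mean FPKM of 0.0667 in control and 0.773 in APPswe+ cells, and like Pdcd1lg2 it passed the filter only through the genotype in which it was higher. Tnfsf9 (4-1BB ligand) had a log2 fold change of 0.16 (adjusted p = 0.234). Each of 5 nectin and Pvr genes passed the adjusted p threshold, as did 64% of all genes tested. Among them Nectin2 (1.97) and Pvr (1.29), whose products bind TIGIT and CD226, were up-regulated and Nectin3 (-1.35) was down-regulated.

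Of 9 SLAM family genes, 5 were up-regulated and 1, Cd84 (-1.28), was down-regulated, with a median log2 fold change of 1.54, against 8.9% up, 9.2% down and a median of -0.02 over all genes tested. Slamf9 rose from a mean FPKM of 36.7 to 451 (log2 fold change 3.84, adjusted p = 3.26e-08), and Cd244a, the receptor of CD48, rose from 1.14 to 21 (4.39). Slamf7 (2.36) was also up-regulated, as was Slamf1 (mean FPKM 0.0967 and 0.693), which passed the filter only through the APPswe+ libraries. Cd48 had a log2 fold change of 0.56 (adjusted p = 0.000128).

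Of 9 ligands and partners of the inhibitory genes, 3 were up-regulated and 1 was down-regulated (8.9% and 9.2% of all genes tested), with a median of 0.06. Besides Lgals9 and Ceacam1, Cd47, the ligand that inhibits uptake through SIRPA, was up-regulated (1.28), and Lgals3, which encodes galectin-3, was down-regulated (-1.79). Sirpa had a log2 fold change of 0.06 (adjusted p = 0.365). Of 9 tested inhibitory receptors of myeloid cells, Pilra was up-regulated (1.70) and Cd300a (-2.14), Cd300lf (-2.00) and Lilrb4a (-1.09) were down-regulated, and the median was -0.02.

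The T cell receptors that these ligands engage were mostly near 0. Pdcd1, which encodes PD-1, had a mean FPKM of 0.01 in control and 0.0167 in APPswe+ cells, and Ctla4 had 0.01 and 0.00667. Cd28 was the most abundant of them, with a mean FPKM of 23.4 in control and 3.35 in APPswe+ cells (log2 fold change -2.59, adjusted p = 1.77e-07). Cd3e was at a mean FPKM of 0.0233 and 0.01. Of the 5 genes of this list that were tested, 2 were down-regulated (Cd28 and Icos, -1.16) and 1 up-regulated, Tnfrsf9 (4-1BB), from a mean FPKM of 0.0967 to 1.59. Icos and Tnfrsf9 passed the filter only through the genotype in which each was higher. Tnfrsf4 (OX40) was at a mean FPKM of 1.37 and 0.713 (log2 fold change -0.69, adjusted p = 0.0391).

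Of 16 tested genes of CD40 signalling, 4 were up-regulated and 0 were down-regulated with edgeR, with a median log2 fold change of 0.56, and 14 passed the adjusted p threshold, 10 of them higher and 4 lower, against 64% of all genes tested. The lower ones were Traf5 (-0.82), Map3k14 (-0.37), Ikbkb (-0.34) and Rela (-0.17), of which the first 3 were named after their values were seen. The up-regulated genes were Traf1 (2.27) and Birc3 (1.89), proteins recruited to the receptor complex, Nfkbia (2.11), the inhibitor of NF-kB, and Nfkb2 (1.02), which encodes p100. Rela (-0.17, adjusted p = 0.0299) and Nfkb1 (-0.00, adjusted p = 0.972), the canonical NF-kB subunits, did not reach the fold change threshold. Of 18 genes that control PD-L1, mostly of interferon and STAT signalling, 6 were up-regulated and 1 down-regulated, with a median of 0.19. By adjusted p alone 15 passed, 9 of them higher and 6 lower, against 64% of all genes tested. Stat2 (1.70), Socs1 (2.85) and Socs3 (1.68) were among the up-regulated genes, while Ifngr1, a chain of the interferon-gamma receptor, was the gene that was down-regulated (-1.10, named after its value was seen). Cmtm6, whose product keeps PD-L1 at the cell surface, had a log2 fold change of -0.01 (adjusted p = 0.86).

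Of 7 genes tied to the surface turnover of CD86 and CD83 or to MHC class II, 0 were up-regulated and 2 were down-regulated with edgeR, Ciita (-3.36), the master regulator of MHC class II genes, and Cd74 (-2.55), the invariant chain. All 7 passed the adjusted p threshold, 2 higher and 5 lower, against 64% of all genes tested. Marchf1, named after its value was seen, encodes the ubiquitin ligase that removes CD86 from the surface, and its log2 fold change was 0.86 (adjusted p = 4.61e-05).

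**Figure D5:**
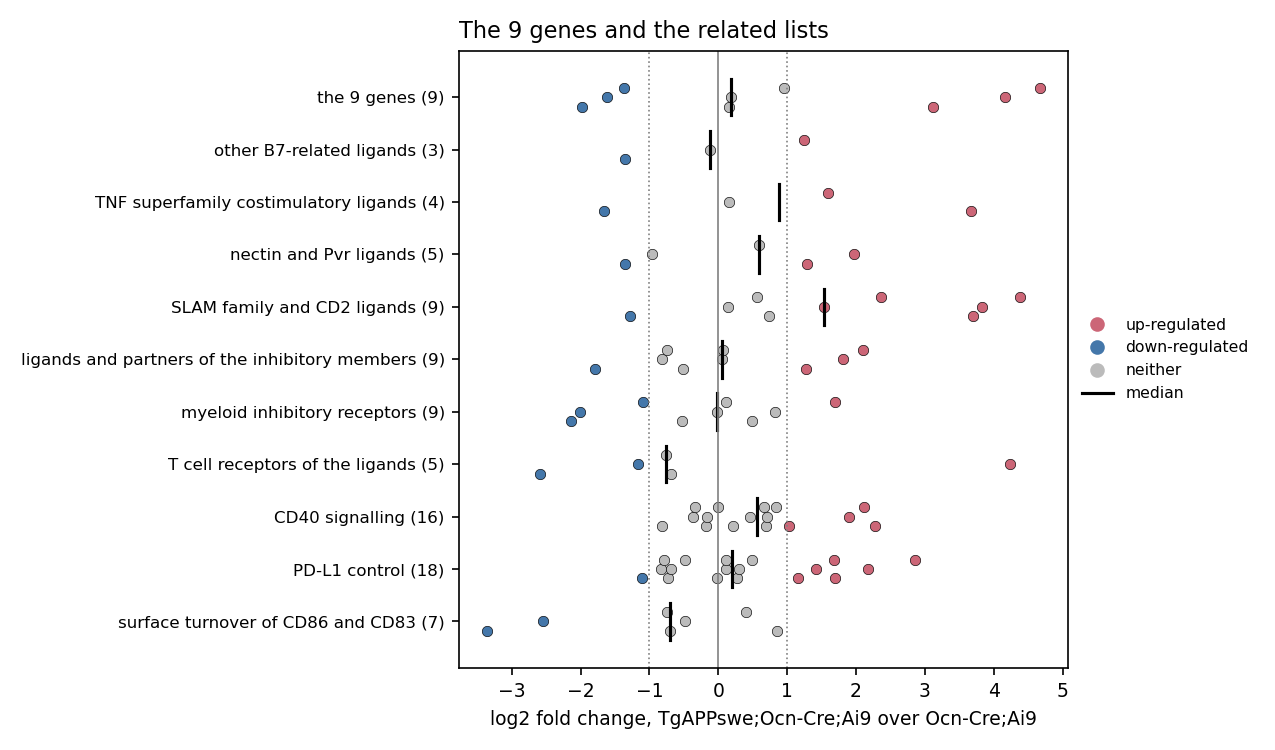
Log2 fold change (APPswe+ over control, edgeR) of each tested gene of the 9 and of the 10 related lists, one row per list with its number of tested genes, coloured by call, with a black line at each median. The 9 genes spread from -1.98 to 4.67 with a median of 0.18, and the SLAM family has the highest median, 1.54.

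Other marker genes moved with genotype beside these results, and their part in them was not tested. Of 15 myeloid marker genes, 5 were up-regulated (among them Aif1, 2.04, and Adgre1, 1.89) and 4 down-regulated (among them Mrc1, -2.38), and their summed FPKM was 18538 to 19388 in control and 15693 to 19439 in APPswe+ libraries. Dendritic cells carry high levels of CD40, CD83 and CD86. Of 7 tested dendritic cell marker genes, 4 were up-regulated (Batf3, 2.58, Xcr1, 1.88, Fscn1, 1.73, and Dpp4, 1.48) and Kmo was down-regulated (-2.30). Of the up-regulated ones, Xcr1 (mean FPKM 0.143 in control and 0.457 in APPswe+ cells) and Dpp4 (0.0633 and 0.183) were near 0 in both genotypes. The summed FPKM of the 12 was 37.8 to 57.3 in control and 57 to 71.4 in APPswe+ libraries, mostly from Itgax and Fscn1. Itgax, the most abundant of them in control, was at a mean FPKM of 28.7 in control and 12.6 in APPswe+ cells (log2 fold change -0.97, adjusted p = 0.0507), while Ccr7 (0.0267 and 0.0967), Flt3 (0.0733 and 0.247) and Clec9a (0.157 and 0.0333) were near 0 in mean FPKM. B cell marker genes summed to 2.09 to 3.04 in control and 4.15 to 4.84 in APPswe+ libraries, with Cd79b the 1 up-regulated gene of 2 tested (1.75). Of 14 tested stromal and osteoblast marker genes 2 were up-regulated, Lum (mean FPKM 0.01 and 0.767) and Dcn (0.447 and 5.97), of 4 tested T cell marker genes Cd5 was up- and Cd247 down-regulated, and 1 gene each was up-regulated among mast cell and basophil (Hdc), neutrophil (Camp) and endothelial and erythroid (Pecam1) marker genes. Lum, Dpp4, Cd247 and Camp passed the filter only through the genotype in which each was higher. Mast cell and basophil marker genes summed to 1.28 to 1.71 and 1.54 to 1.87, neutrophil marker genes to 59.3 to 113 and 74.3 to 100.3, endothelial and erythroid marker genes to 3.97 to 5.97 and 5.7 to 6.45, and the stromal and osteoblast marker genes to 159 to 177 and 129 to 210.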

How the data were processed

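Total RNA of FACS-sorted tdTomato+ cells was sequenced on a DNBSEQ platform. The paper accepted samples with an RNA integrity number above 2, a low cutoff. The authors filtered out reads from rRNA, of low quality or with adaptor and mapped the rest with HISAT2; the submitters' notes also list HISAT2 2.0.4, Bowtie2 2.2.5, RSEM 1.2.12, DESeq2 1.4.5 and mm10, without roles. The authors deposited estimated counts, fractional for 13.3% to 14.4% of genes per library, and deposited FPKM values rounded to 2 decimals. A second table, with FPKM columns and the authors' own fold changes (LogFC) and p-values (P), was not used.

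Estimated counts were rounded, as was planned for fractional counts. They were tested with the quasi-likelihood test of edgeR 4.0.16 under R 4.3.3, after filterByExpr and TMM scaling, with Benjamini-Hochberg adjustment over all genes tested. Intervals are 95% intervals. Ratios of FPKM were compared with an exact permutation test in scipy 1.17.1. The procedure was tested on simulated data. Changed genes in them had more counts in control than Pdcd1lg2 had, and rose and fell in equal number. The simulation therefore does not cover changed genes that low or a shift in scaling. Alternatives used DESeq2 1.42.0, limma 3.58.1 on log2(FPKM + 1) or log2(FPKM + 0.1), other scalings and filters, a replicate block and the removal of each library. The difference between 2 libraries, relative to sampling noise, was 2.65 to 6.61 within a genotype and 57.4 to 71.8 between genotypes, so none was counted as a duplicate. Symbols that had become dates (24) were restored by Entrez identifier.

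Beyond the 9 genes, up to 4 called genes with the largest change and up to 3 others with the highest FPKM were named per list, together with ligands, receptors and neighbours of the 9 genes; exceptions are marked, and Marchf1, Ifngr1, Jak2, Cmtm6, Cd84, Ermp1, Bglap and defining markers near 0 also lie outside this rule. The 9 genes and the lists were chosen with earlier results of these data known. Some genes that this rule would name are not reported here.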

Additional observations from a re-analysis of the deposited data

How the results depend on the processing

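All alternatives named here were planned. Cd274, Cd40, Cd86, Cd83 and Havcr2 kept their direction and their call in each of 15 alternative fits. Pdcd1lg2 lost its call in limma on log2(FPKM + 1), with a log2 fold change of 0.59 with and without a filter, and could not be fitted under a filter of 10 or more counts in each library. Under library size only, which moved the median of all genes from -0.02 to -0.23, and in limma on log2(FPKM + 1) with and without a filter and on log2(FPKM + 0.1), Cd80 turned to -0.059, -0.044, -0.044 and -0.053 and Cd200r1 to -0.033, -0.033, -0.033 and -0.034, none of them past the threshold. Dropping the fold change threshold gave 5 up-regulated genes among the 9 in place of 3. Over all genes it gave 4122 up- and 4007 down-regulated genes in place of 1130 and 1169, and limma on log2(FPKM + 1) gave 593 up-regulated genes, or 589 without a filter. The balance of up- to down-regulated genes was 846 to 1732 with library size only. It was 811 to 1510 in limma on log2(FPKM + 0.1) and 593 to 845 in limma on log2(FPKM + 1), which change the measure and the test as well as the scaling.

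With 1 library left out at a time, the 9 genes held 3 to 4 that were up-regulated and 3 to 3 that were down-regulated. Over all genes, the up-regulated numbered 1103 to 1150 and the down-regulated 1125 to 1262. The log2 fold changes then ranged from 4.60 to 4.75 for Cd274, 3.76 to 4.41 for Pdcd1lg2, 2.95 to 3.28 for Cd40, 0.74 to 1.13 for Icosl, 0.16 to 0.21 for Cd200r1, 0.05 to 0.22 for Cd80, -1.47 to -1.26 for Cd83, -1.66 to -1.57 for Cd86 and -2.26 to -1.79 for Havcr2. The log2 ratios of Cd80 to Cd86 and of Cd80 to Cd274 kept their direction under each of 9 alternatives. Equal replicate numbers did not pair the libraries (correlations of deviations of 0.0127, 0.00664 and 0.141), and a fit with the replicate block changed no call of the 9 genes (Icosl 0.93, Cd40 3.10). Depth limits Pdcd1lg2 most, with 2 to 3 counts in control.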
